A study of Arabidopsis thaliana with 7 samples.

Results

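The plastid genome of Arabidopsis thaliana encodes the core subunits of the photosynthetic membrane complexes. Of the 22746 probe sets on each array, control probe sets left out, 43 measure those genes. A probe set was taken as a member when its only annotated gene is plastid-encoded and carries a symbol beginning with psa, psb, pet, atp or ndh, or is rbcL. The members comprise 5 genes of photosystem I, 15 of photosystem II, 6 of the cytochrome b6f complex, 6 of the chloroplast ATP synthase, 10 of the NADH dehydrogenase-like (NDH) complex and the gene for the large subunit of Rubisco. Of 44 listed symbols, ndhB was not analysed here, because its probe set is paired with both copies of the gene. The choice of members used no measured value.

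The study profiled biotin-labelled total RNA of whole seedlings, with 7 samples on 7 one-colour arrays. It compared mutants of SOC1, a flowering-promoting transcription factor of the MADS-box family, to find its downstream targets. All seedlings were grown for 7 days at 21 °C with 16 h of light and 8 h of dark. Col, the Columbia wild type, was measured in experiments 1, 2 and 3, with the vegetative stage stated for experiments 1 and 2. The early-flowering soc1-101D carries a gain-of-function allele of SOC1 in Col and was also measured in experiments 1, 2 and 3. The late-flowering soc1-2 carries a SOC1 knock-out in the Col background and has 1 array, in experiment 3, so its differences from Col have no replicate check. The labels tie each mutant array to a Col array with the same experiment number as its baseline, but do not say what separates the experiments or whether they were separate plantings. The p-values therefore measure the spread between these arrays, which may be technical.

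Photosystem II oxidises water and passes electrons through plastoquinone to the cytochrome b6f complex, which hands them to photosystem I through plastocyanin. The proton gradient built on the way drives the ATP synthase, the NDH complex returns electrons from the stroma to plastoquinone, and Rubisco fixes carbon dioxide. Most of these complexes combine plastid-encoded core subunits with nucleus-encoded ones, and many plastid genes are transcribed together in polycistronic units, so that members of a unit share transcripts and are not independent measurements.

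Each array was scaled to a common median intensity of 192.7. Differences are given on the scale of log2(scaled signal + 19.3), which understates the change of dim probe sets. The dimmest 40% of probe sets, by mean over the arrays, were left out, and 42 of the 43 members were among the 13648 tested. The member left out was ndhF, an NDH subunit, with scaled signals of 81.6, 62.8 and 68.2 in Col of experiments 1, 2 and 3. Its values were 54.8, 30.02 and 61.7 on the soc1-101D arrays and 32.6 on the soc1-2 array. A member was called changed when limma, with the experiment as a block, gave a Benjamini-Hochberg adjusted p under 0.05 over all 13648 probe sets.

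Across all probe sets, pairs of arrays within an experiment correlated at 0.954 to 0.983 (Pearson's r), and pairs from different experiments at 0.824 to 0.929. No probe set was paired with SOC1 in the gene table used here, so the genotypes rest on the labels. Green tissue was present on every array, with RCA, the activase of Rubisco, at scaled signals of 21958 to 30387. Of the root markers, PYK10 lay between 13114 and 22022. In bulk RNA of whole seedlings, fewer green cells and less plastid RNA per cell cannot be told apart.

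**Figure D1:**
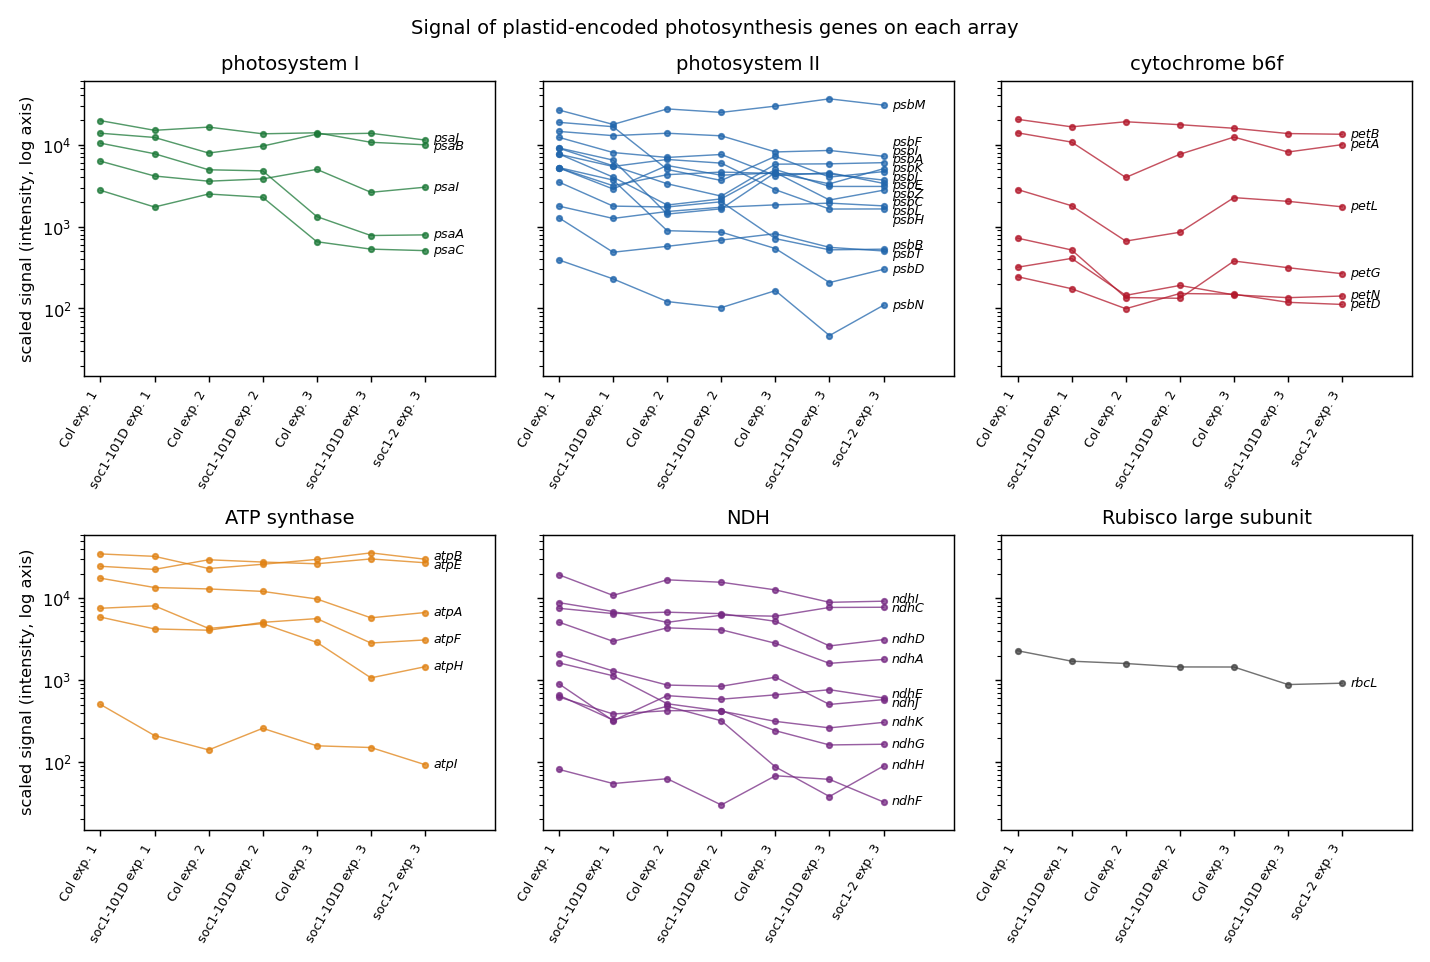
Scaled signal (intensity, log axis) of all 43 members on the 7 arrays, 1 panel per complex, with 1 point per array and a line joining the points of 1 gene. Most genes were highest on the Col array of experiment 1, while psaA, psbD and ndhH were far lower on the arrays of experiment 3.

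The members together took 2.21%, 1.66% and 1.49% of the summed signal in Col of experiments 1, 2 and 3. On the soc1-101D arrays they took 1.80%, 1.64% and 1.31%, and on the soc1-2 array 1.28%. Each mutant array thus gave a smaller share than the Col array of its experiment, by little in experiment 2. For 36 of the 43 members the highest of the 7 arrays was Col of experiment 1. For 24 the lowest array was in experiment 3, on the soc1-101D array for 18 of them and on the soc1-2 array for 6.

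The first comparison asked how transcripts of the plastid-encoded subunits stood under the gain-of-function allele. In soc1-101D, no member was called higher or lower than Col by limma, where 0.271% of all probe sets tested were called lower and 0.271% higher. At an unadjusted p under 0.05, 14 of 42 members were lower and 0 higher, beside 6.59% and 4.43% of all probe sets tested. The mean difference was below 0 for 38 of 42 members, with a median log2 difference of −0.39, beside −0.02 over all probe sets tested. In all 3 experiments 18 members were lower than Col and none was higher, beside 18.3% and 14.5% of all probe sets tested.

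The size differed between experiments. The median log2 difference of the members was −0.50 in experiment 1, −0.05 in experiment 2 and −0.44 in experiment 3, an SD of 0.25 over the 3 medians. Over all probe sets tested the corresponding medians were −0.08, 0.01 and 0.01. For the 26 plastid-encoded probe sets of genes outside the photosynthetic complexes they were −0.54, 0.20 and −0.62. In experiment 1, 40 of 42 members lay below Col, in experiment 2 23 and in experiment 3 32, where 59.5%, 49.4% and 48.7% of all probe sets tested did. At least 1.5-fold lower than Col were 18 members in experiment 1 (9.24% of all probe sets tested), 0 in experiment 2 (6.95%) and 17 in experiment 3 (3.39%). The median of the mean differences was −0.22 without experiment 1, −0.56 without experiment 2 and −0.27 without experiment 3.

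**Figure D2:**
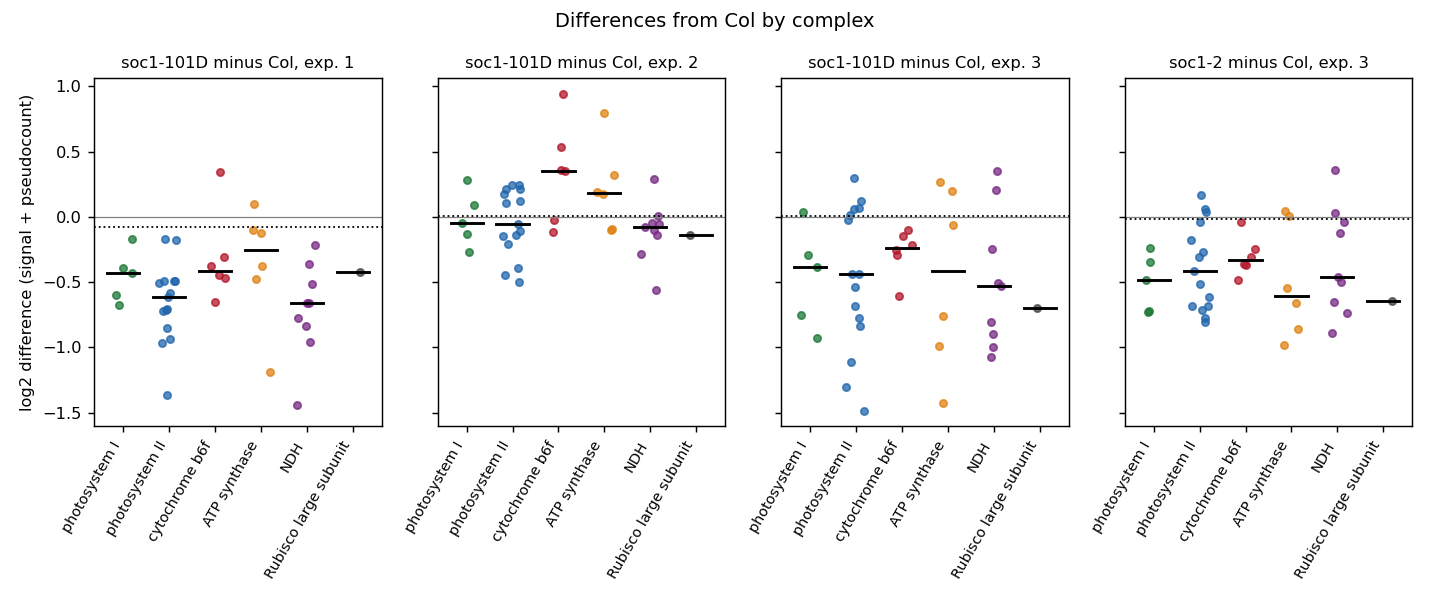
Difference from the Col array of the same experiment for the 42 members tested, in log2(signal + pseudocount), with 1 point per gene, a bar at the median of each complex and a dotted line at the median of all probe sets tested. The median of every complex lies below 0 in experiments 1 and 3, whereas in experiment 2 the medians of cytochrome b6f and ATP synthase lie above it.

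Of the photosystem II genes, psbA encodes D1, the reaction-centre protein that is replaced most often after light damage. Its scaled signals were 5206, 5576 and 4523 in Col of experiments 1, 2 and 3, 2881, 4244 and 3331 on the soc1-101D arrays, and 5095 on the soc1-2 array. All 3 soc1-101D arrays lay below all 3 Col arrays, and psbA was alone among the 42 members tested in this, beside 2.42% of all probe sets tested. The fitted log2 difference of psbA was −0.56 ± 0.16 (SE, n = 3 per group, limma adjusted p = 0.232), and it was lower in 3 of 3 experiments. The soc1-2 array lay inside the range of Col for psbA, 0.17 above its own Col array on the log2 scale.

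The second reaction-centre protein, D2, is encoded by psbD. Its scaled signals were 5258, 891 and 539 on the Col arrays, 3703, 856 and 207 on the soc1-101D arrays, and 301 on the soc1-2 array. The groups overlapped because psbD differed far more between experiments than between genotypes. Within experiments psbD was lower in soc1-101D by log2 differences of −0.50, −0.06 and −1.30, with a fitted value of −0.62 ± 0.23 (limma adjusted p = 0.378), and on the soc1-2 array its difference from Col was −0.80.

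The gene psbN lies within the psbB unit on the opposite strand and is known from tobacco as an assembly factor of photosystem II. Its probe set was dim, with scaled signals of 391, 122 and 165 on the Col arrays, 230, 102 and 46.7 on the soc1-101D arrays, and 110 on the soc1-2 array. The soc1-101D array was the lower one in each experiment, while the groups overlapped. The fitted log2 difference of −0.80 ± 0.24 had a limma adjusted p of 0.249. Without experiment 2 it was −1.10 with an adjusted p of 0.0464, the 1 call of a member made in either mutant when an experiment was left out.

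The small subunit gene psbM gave scaled signals of 26531, 27388 and 29633 on the Col arrays, 17701, 24849 and 36359 on the soc1-101D arrays, and 30464 on the soc1-2 array. Its soc1-101D arrays lay both lowest and highest of all 7, and the fitted log2 difference was −0.14 ± 0.19 (limma adjusted p = 0.853). For psbF, which encodes 1 of the subunits of cytochrome b559, the scaled signals were 14536, 13821 and 8164 on the Col arrays, 12914, 12852 and 8516 on the soc1-101D arrays, and 7221 on the soc1-2 array. Experiment 3 was low for psbF in every genotype, and its fitted log2 difference in soc1-101D was −0.07 ± 0.14 (limma adjusted p = 0.917).

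All 15 photosystem II genes had a mean difference below 0 in soc1-101D, from −0.80 for psbN to −0.07 for psbF, with a median of −0.46. That median was −0.18 without experiment 1, −0.64 without experiment 2 and −0.32 without experiment 3, and within experiment 2 it was −0.06, with 7 of 15 genes above 0. Among those not given by array, psbT had −0.55, psbK −0.49, psbH −0.47, psbC, the gene of the antenna protein CP43, −0.46, and psbB, that of CP47, −0.40. None of these passed the test.

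In photosystem I, psaA and psaB encode the reaction-centre heterodimer and are transcribed together. The scaled signals of psaA were 10457, 4944 and 1325 on the Col arrays, 7761, 4794 and 778 on the soc1-101D arrays, and 792 on the soc1-2 array. Those of psaB were 19698, 16423 and 13986 on the Col arrays, 15000, 13599 and 10714 on the soc1-101D arrays, and 9986 on the soc1-2 array. Both genes were lower in soc1-101D than in Col in each of the 3 experiments, psaA by a fitted −0.41 ± 0.17 and psaB by −0.35 ± 0.14 on the log2 scale (limma adjusted p = 0.451 and 0.418). On the soc1-2 array psaA was at −0.73 and psaB at −0.49 against Col.

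The small subunit genes psaI and psaJ were at the ends of the photosystem I range. For psaI the scaled signals were 6297, 3587 and 5004 on the Col arrays, 4149, 3825 and 2623 on the soc1-101D arrays, and 3029 on the soc1-2 array. Experiments 1 and 3 showed psaI below Col in soc1-101D and experiment 2 slightly above, with a fitted value of −0.48 ± 0.21 (limma adjusted p = 0.459). For psaJ they were 13823, 7922 and 13456 on the Col arrays, 12272, 9634 and 13803 on the soc1-101D arrays, and 11411 on the soc1-2 array. The psaJ groups overlapped fully, at a fitted 0.05 ± 0.16 (limma adjusted p = 0.952). The iron-sulfur subunit gene psaC had a mean difference of −0.37 in soc1-101D and was at −0.35 on the soc1-2 array.

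The cytochrome b6f genes had the median nearest to 0 in soc1-101D, at −0.11, and that median was 0.11 without experiment 1. The gene of cytochrome b6, petB, gave scaled signals of 20433, 19093 and 15892 on the Col arrays, 16546, 17574 and 13695 on the soc1-101D arrays, and 13429 on the soc1-2 array. Each mutant array was below its Col array for petB, by a fitted −0.21 ± 0.14 in soc1-101D (limma adjusted p = 0.664) and −0.24 on the soc1-2 array. The small subunit gene petG gave 723, 136 and 380 on the Col arrays, 518, 133 and 315 on the soc1-101D arrays, and 266 on the soc1-2 array. Experiment 2 was low for petG in both genotypes, and the fitted soc1-101D difference was −0.25 ± 0.15 (limma adjusted p = 0.625).

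Another small subunit gene, petN, went the other way. Its scaled signals were 319, 145 and 147 on the Col arrays, 409, 191 and 136 on the soc1-101D arrays, and 142 on the soc1-2 array. It was above Col in experiments 1 and 2 and below in experiment 3, at a fitted 0.20 ± 0.16 (limma adjusted p = 0.723). The gene of cytochrome f, petA, had soc1-101D differences of −0.38, 0.94 and −0.60 in the 3 experiments, which average to −0.01.

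Within the ATP synthase, the subunits beta and epsilon of the catalytic part, CF1, are encoded by atpB and atpE. The scaled signals of atpB were 34976, 23205 and 29994 on the Col arrays, 32661, 26151 and 36021 on the soc1-101D arrays, and 30129 on the soc1-2 array. Those of atpE were 24701, 29667 and 26507 on the Col arrays, 22640, 27833 and 30372 on the soc1-101D arrays, and 27295 on the soc1-2 array. Neither gene separated the groups, with fitted soc1-101D differences of 0.11 ± 0.15 and −0.01 ± 0.15 (limma adjusted p = 0.854 and 0.993) and soc1-2 differences of 0.01 and 0.04.

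The alpha subunit gene atpA and the membrane-ring subunit gene atpH belong to the other atp unit. For atpA the scaled signals were 17677, 13063 and 9841 on the Col arrays, 13592, 12190 and 5799 on the soc1-101D arrays, and 6726 on the soc1-2 array. For atpH they were 7586, 4301 and 2910 on the Col arrays, 8119, 4922 and 1071 on the soc1-101D arrays, and 1465 on the soc1-2 array. Both were lowest on the mutant arrays of experiment 3, and atpH was slightly above Col in experiments 1 and 2. The fitted soc1-101D difference of atpA was −0.41 ± 0.17 (limma adjusted p = 0.435) and that of atpH −0.38 ± 0.30 (limma adjusted p = 0.723). Without experiment 3 the difference of atpH was 0.15. On the soc1-2 array atpH had the lowest difference from Col of all 42 members tested, −0.98, and atpA was at −0.55.

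In the NDH complex, ndhH encodes a subunit of the arm that faces the stroma. Its scaled signals were 655, 482 and 87.5 on the Col arrays, 327, 320 and 38.0 on the soc1-101D arrays, and 89.8 on the soc1-2 array. The soc1-101D array was lowest within each experiment, by −0.96, −0.56 and −0.90 on the log2 scale, while soc1-2 was level with its Col array, at 0.03. The fitted soc1-101D difference of −0.81 ± 0.15 had the smallest adjusted p of any member, 0.0889 by limma, and so ndhH was not called.

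The subunit genes ndhI and ndhJ also had lower soc1-101D arrays in each experiment. For ndhI the scaled signals were 19423, 16882 and 12722 on the Col arrays, 10885, 15764 and 8966 on the soc1-101D arrays, and 9256 on the soc1-2 array. For ndhJ they were 2069, 875 and 1091 on the Col arrays, 1301, 845 and 507 on the soc1-101D arrays, and 581 on the soc1-2 array. The fitted differences were −0.48 ± 0.18 and −0.60 ± 0.21 (limma adjusted p = 0.368 and 0.332), and on the soc1-2 array they were −0.46 and −0.89.

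The gene ndhC, transcribed in the same unit as ndhJ, had the highest difference from Col of the NDH members tested in both mutants. Its scaled signals were 8881, 5104 and 6071 on the Col arrays, 6924, 6243 and 7762 on the soc1-101D arrays, and 7804 on the soc1-2 array. The groups overlapped, and the fitted soc1-101D difference was 0.09 ± 0.18 (limma adjusted p = 0.914), against a plain soc1-2 difference of 0.36. Over the 9 NDH members tested the median was −0.46 in soc1-101D, between −0.62 and −0.30 when 1 experiment was left out, and −0.46 on the soc1-2 array.

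The gene of the large subunit of Rubisco, rbcL, gave scaled signals of 2297, 1604 and 1453 on the Col arrays, 1712, 1456 and 887 on the soc1-101D arrays, and 922 on the soc1-2 array. Each mutant array was below its Col array, although the groups overlapped across experiments. The fitted soc1-101D difference was −0.42 ± 0.16 (limma adjusted p = 0.395), and on the soc1-2 array it was −0.65.

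The second comparison asked how the same genes stood in the SOC1 knock-out. On the soc1-2 array 35 of 42 members lay below the Col array of experiment 3, where 53.6% of all probe sets tested did, and the median log2 difference was −0.44 beside −0.02. At least 1.5-fold lower were 15 members, beside 1.86% of all probe sets tested, and none was at least 1.5-fold higher, beside 2.73%. None was 2-fold lower, beside 0.139%. Of the 26 plastid-encoded probe sets for genes outside the photosynthetic complexes, 25 lay below Col and 13 were at least 1.5-fold lower. The limma fit, which takes the spread of the lone soc1-2 array from the other arrays, called 0 members (0% of all probe sets tested). At an unadjusted p under 0.05, psbH was lower, beside 1.22% of all probe sets tested, and no member was higher, beside 1.61%.

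By complex, the median difference on the soc1-2 array was −0.49 for photosystem I, −0.41 for photosystem II, −0.33 for cytochrome b6f, −0.60 for the ATP synthase and −0.46 for NDH. The members at least 1.5-fold lower included the photosystem II genes psbD at −0.80, psbH at −0.77, psbC at −0.71 and psbK at −0.62. They also included atpF, a CFo subunit gene, at −0.86 and ndhD at −0.74. The 7 members above Col, where 46.4% of all probe sets tested lay, were psbA, psbI, psbM, atpB, atpE, ndhC and ndhH, none by more than 0.36.

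Both mutants of experiment 3 share their Col array, which was the highest of the 3 for 31 of 43 members. A low difference in one mutant therefore tends to come with a low difference in the other, and agreement between them is not counted here as a result. The soc1-101D array of experiment 3 had a median of −0.44 against this Col array and the soc1-2 array one of −0.44. Values side by side were −1.43 and −0.98 for atpH, −1.08 and −0.89 for ndhJ, −0.75 and −0.73 for psaA, and −0.70 and −0.65 for rbcL.

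The mutants were then compared directly. The plain differences between the mutant arrays used no Col array. The limma fit of this contrast also drew on the Col arrays, so its fitted values and p-values are not free of them. Within experiment 3 the soc1-2 array differed from the soc1-101D array by a median log2 of 0.03 over the members, with 25 above and 17 below, beside 45.3% and 54.7% of all probe sets tested. At least 1.5-fold higher in soc1-2 were 3 members, psbN at 0.97, ndhH at 0.93 and psbA at 0.61, beside 4.42% of all probe sets tested. The 1 member at least 1.5-fold lower was atpI, a CFo subunit gene, at −0.60, beside 3.25%. The limma fit called no member in this contrast, where 0.0220% of all probe sets tested were called lower and 0.0293% higher. At an unadjusted p under 0.05 ndhH, with a fitted 0.88 ± 0.24 (limma adjusted p = 0.502), and psbA, with 0.67 ± 0.25 (limma adjusted p = 0.741), were higher in soc1-2, beside 3.51% of all probe sets tested, and no member was lower, beside 2.34%.

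The 3 experiments were compared with the same fit, from the Col and soc1-101D arrays of each (n = 2 per experiment). Against experiment 1, limma called 13 of 42 members lower and 0 higher in experiment 2, where 16.0% and 16.6% of all probe sets tested were called. In experiment 3 it called 21 lower and 0 higher than in experiment 1, where 14.3% and 25.9% were called. The median log2 difference of the members was −0.43 in experiment 2, beside −0.0011 over all probe sets tested, and −0.75 in experiment 3, beside 0.16. Relative to all probe sets tested, the members were at −0.43 and −0.91. The filter on dim probe sets bears on these counts, which were 7 and 10 with no filter.

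The largest falls of members in experiment 2 against experiment 1 were those of psbC and psbD, at −2.32 and −2.31 (limma adjusted p = 0.00143 and 0.00127). The genes psbK and petG fell by 2.04 each (limma adjusted p = 0.000632 and 0.000452). Falls were also called for petL at −1.56, ndhK at −1.51, psbZ at −1.47, psbI at −1.33, psbN at −1.29, petA at −1.15, petN at −1.04, ndhJ at −0.92 and psaA at −0.89. Of the complexes, cytochrome b6f had 4 of 6 members called and a median of −1.09, and the ATP synthase had none called at a median of −0.38.

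In experiment 3 against experiment 1, psbD fell by 3.64 on the log2 scale (± 0.29, SE, limma adjusted p = 0.000187), psaA fell by 3.12 (± 0.21, limma adjusted p = 9.88e-05) and ndhH fell by 2.63 (± 0.19, limma adjusted p = 0.000124). These are falls of 12.5-fold, 8.72-fold and 6.18-fold. The scaled signals of psaC were 2775, 2501 and 654 on the Col arrays, 1735, 2279 and 531 on the soc1-101D arrays, and 509 on the soc1-2 array. All arrays of experiment 3 were low for psaC, and it fell by 1.86 against experiment 1 (limma adjusted p = 0.000633). The other called falls ran from ndhK at −2.17, atpH at −2.14 and psbB at −2.0 to psbF at −0.72.

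By complex, 8 of 15 photosystem II members were called lower in experiment 3 than in experiment 1, 6 of 9 in NDH, 2 of 5 in photosystem I, 2 of 6 in cytochrome b6f, 2 of 6 in the ATP synthase, and rbcL. The median was −0.92 for NDH, −0.72 for photosystem II, −0.66 for the ATP synthase, −0.49 for photosystem I and −0.44 for cytochrome b6f, with rbcL at −0.79. Members not called included psbA at 0.00, atpB at −0.04, psaJ at 0.07, atpE at 0.26, psbL at 0.33, ndhE at 0.39 and psbM at 0.60. All 3 arrays of experiment 3 lay below all 4 arrays of experiments 1 and 2 for 16 of 42 members, beside 9.22% of all probe sets tested.

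Experiment 3 against experiment 2 split the members, with 13 called lower and 6 higher, where 7.79% and 16.7% of all probe sets tested were called. Lower were psaA at −2.24, ndhH at −2.40, psaC at −1.98, psbB at −1.59 and psbH at −1.54 among others. Higher were petL at 1.49, petG at 1.25, psbI at 1.05, psbC at 1.01, psbZ at 0.97 and psaJ at 0.64. With no filter on dim probe sets none of these was called, and with the 20% dimmest left out 1 was called lower and 0 higher.

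**Figure D3:**
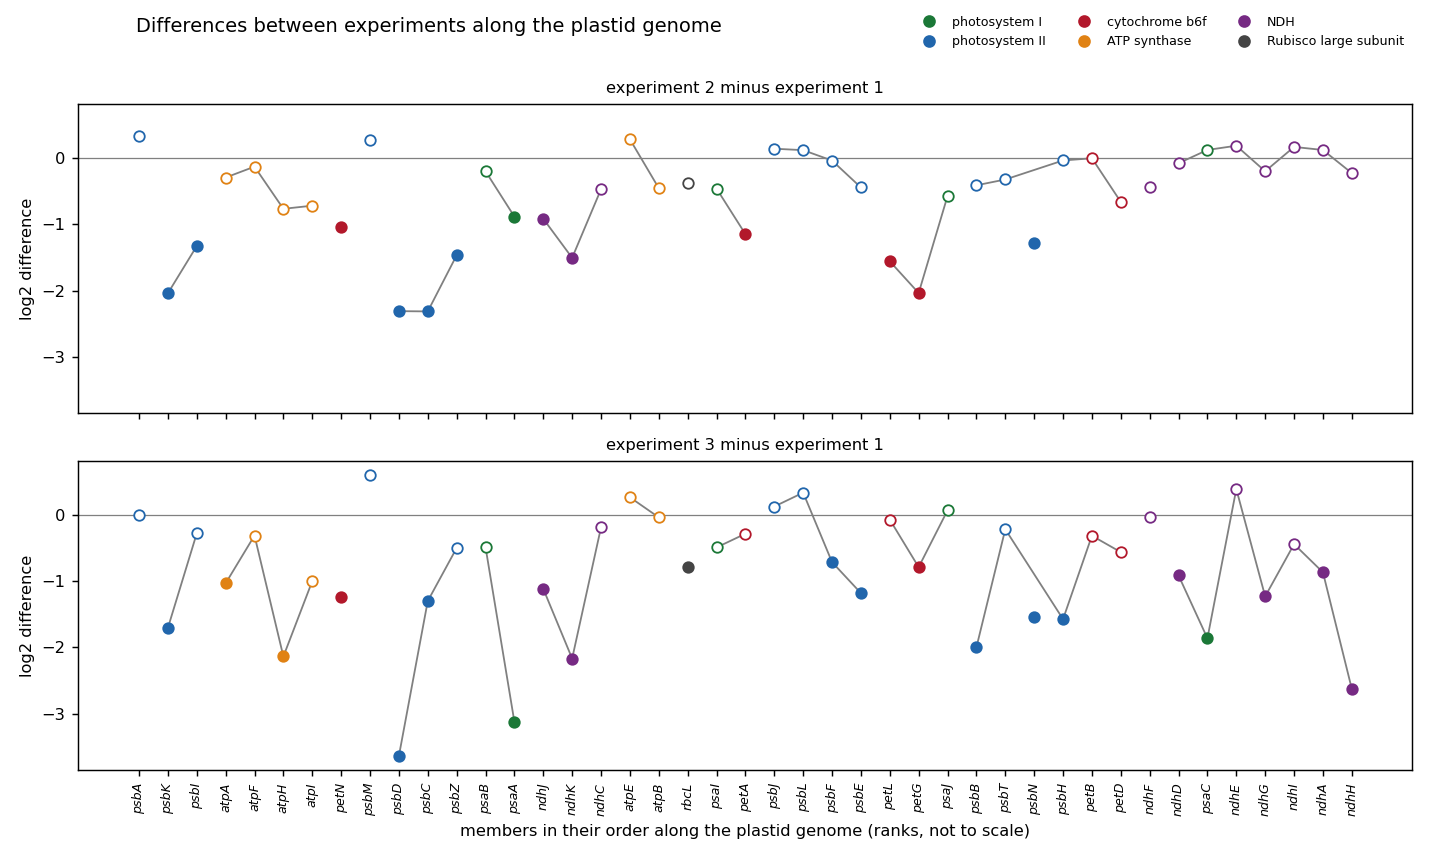
Fitted log2 difference of experiment 2 (top) and experiment 3 (bottom) from experiment 1 for the 43 members, in their order along the plastid genome by rank, with filled points for members called by limma and grey lines joining members of 1 transcription unit. In experiment 2 the units psbD-psbC-psbZ and psbK-psbI are low together, whereas in experiment 3 neighbours within a unit differ widely, as psaA at −3.12 and psaB at −0.49 do. The value of ndhF, which was not tested, is its plain mean difference.

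The transcription units showed how far genes that share transcripts moved together. Over the 37 members in 11 textbook units, the SD of the differences between experiments 2 and 1 was 0.40 within units and 0.74 over all unit members. Between experiments 3 and 1 it was 0.95 within units and 0.96 over all, so genes of a unit were no closer to each other than unit members at large. In the psbD unit the experiment 3 differences from experiment 1 were −3.64 for psbD, −1.30 for psbC and −0.50 for psbZ. In the psbB unit psbB was at −2.0 and psbH at −1.58, but psbT was at −0.22, petB at −0.32 and petD, the gene of subunit IV, at −0.56. The genotype differences were less spread, at 0.17 within units and 0.22 over all for the soc1-101D mean of 3 experiments and 0.28 and 0.32 for soc1-2. Averaging narrows the soc1-101D spread. Its single experiments gave 0.34 and 0.34 in experiment 1, 0.26 and 0.31 in experiment 2, and 0.39 and 0.47 in experiment 3.

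The range over the 7 arrays was also uneven. Between the highest and the lowest array psbD differed 25.4-fold, ndhH 17.2-fold, psaA 13.4-fold, psbN 8.38-fold and atpH 7.58-fold. At the other end atpE differed 1.34-fold, petB 1.52-fold, psbL 1.54-fold and atpB 1.55-fold. The 9 members whose mean scaled signal was over 10000 had a median difference between experiments 3 and 1 of −0.32, within a range of −1.04 to 0.60. The 34 others had a median of −0.89, within −3.64 to 0.39. The same split gave −0.24 and −0.51 on the soc1-2 array, and −0.14 and −0.40 in soc1-101D. The brightest member of an array reached 27833 to 36359 where the brightest probe set of an array reached 35769 to 47489, and the part of signal brightness in these differences was not tested.

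**Figure D4:**
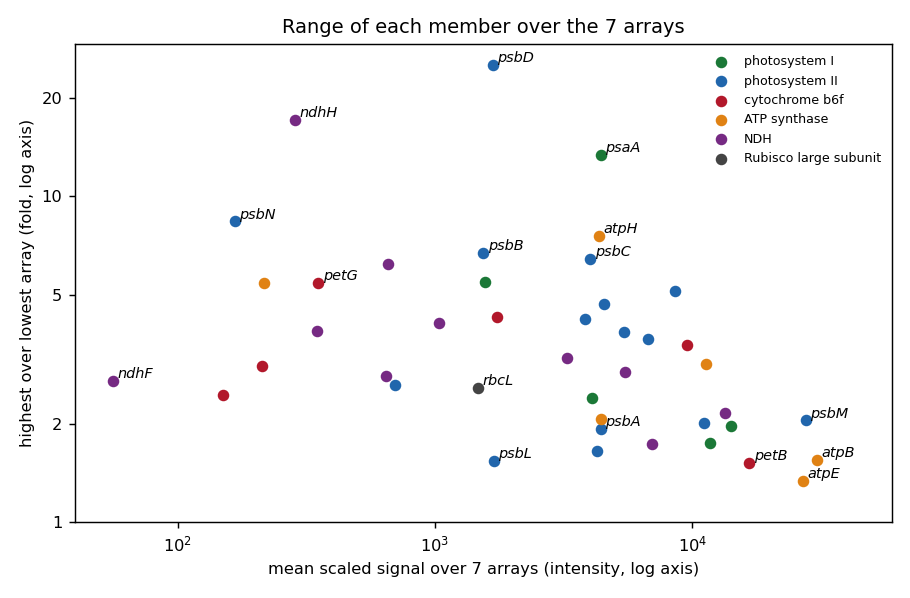
Fold between the highest and the lowest of the 7 arrays (log axis) against the mean scaled signal (intensity, log axis), with 1 point per member coloured by complex. The widest ranges, of psbD, ndhH and psaA, lie at mean signals under 10000. At the bright end atpB and atpE range little, while psbM ranges 2.05-fold.

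Nucleus-encoded partners were taken from a list of photosystem and antenna subunits that also held subunits of the ATP synthase. Of its 52 symbols 9 were matched to a probe set with 1 annotated gene, all tested. Among the 9 were the ATP synthase genes ATPC1 and ATPC2, the latter dim at scaled signals of 142.7 to 246.6. None of the 9 was called in either mutant, and their median difference was 0.05 in soc1-101D and 0.04 on the soc1-2 array. On the soc1-2 array their differences from Col ran from −0.15 for PSAE-1, a photosystem I subunit, and −0.02 for LHCB4.2, an antenna protein, to 0.09 for both LHCB4.1 and the photosystem II protein PSBY. Between experiments 3 and 1 their median was −0.04, with 2 of 9 called lower and 0 higher, beside 14.3% and 25.9% of all probe sets tested. These were LHCB4.3, at −1.07 (limma adjusted p = 0.0099), and LHCB4.2, at −0.76 (limma adjusted p = 0.02). Between experiments 2 and 1 their median was 0.10, with 1 of 9 called lower and 0 higher, beside 16.0% and 16.6%. This was LHCB4.3, at −1.95 (limma adjusted p = 0.00112). The green tissue markers RCA, LHCB4.1 and LHCB4.2 had soc1-2 differences of −0.06, 0.09 and −0.02, and soc1-101D differences of 0.09, 0.05 and 0.16.

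Other nuclear lists were thinly covered. Of 17 nuclear NDH symbols 2 were tested, NdhL and NdhN, at −0.09 and −0.03 on the soc1-2 array. In experiment 2 NdhN fell against experiment 1, at −0.91 (limma adjusted p = 0.00705), and NdhL was at −0.47 and not called. In experiment 3 NdhN was 1.14 above experiment 2 (limma adjusted p = 0.00767). Of 22 plastid RNA maturation symbols 3 were matched to a probe set with 1 gene and 2 were tested, CRR28 and CRR21, both factors that edit ndh transcripts, at −0.68 and −0.67 on the soc1-2 array and not called. Of 17 chlorophyll genes and regulators 2 were tested, CHLI2, a subunit of magnesium chelatase, and PORB, a protochlorophyllide reductase, at 0.00 and 0.02 on the soc1-2 array. None of the 32 listed symbols of nuclear plastid transcription factors was matched to a probe set with 1 gene.

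PORB differed strongly between experiments. Its scaled signals were 2764, 18431 and 7468 on the Col arrays, 2163, 18406 and 10514 on the soc1-101D arrays, and 7551 on the soc1-2 array. It was lowest in experiment 1 and highest in experiment 2, by log2 differences of 2.90 for experiment 2 and 1.85 for experiment 3 against experiment 1 (limma adjusted p = 0.000234 and 0.00118). The senescence marker SAG29 fell from experiment 1 to experiment 3 (limma adjusted p = 2.2e-05), with scaled signals of 1116, 332.5 and 40.4 on the Col arrays, 652.4, 120.4 and 6.90 on the soc1-101D arrays, and 79.0 on the soc1-2 array. It was the 1 marker called in soc1-101D, at −1.09 (limma adjusted p = 0.0408), a call lost under each of the 9 alternatives that gave a value (adjusted p = 0.0527 to 1.00), while its difference was −1.25 to −0.53 under them, the latter with the larger pseudocount. The part of what PORB and SAG29 mark in the members' differences was not tested.

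The root markers PYK10, EXPA7 and EXPA18 had a median difference of −0.12 in soc1-101D and 0.20 on the soc1-2 array, none called, and no seed storage marker of 4 listed was matched to a probe set with 1 gene. The 26 other plastid-encoded probe sets, for genes outside the photosynthetic complexes, had medians of −0.26 in soc1-101D and −0.56 on the soc1-2 array. In soc1-101D 26 of them lay below Col in experiment 1, 8 in experiment 2 and 23 in experiment 3. All probe sets tested gave 59.5%, 49.4% and 48.7%. At least 1.5-fold lower were 11, 0 and 14 of the 26, beside 9.24%, 6.95% and 3.39%. Against experiment 1 the 26 had a median of −0.53 in experiment 2, with 6 called lower, beside 16.0% of all probe sets tested. In experiment 3 their median was 0.02, with 4 called lower and 4 higher, beside 14.3% and 25.9%, so the lower calls were near the share over all probe sets. The photosynthesis members were at a median of −0.75 in the same contrast. The 4 mitochondria-encoded probe sets tested, of 18, had medians of −0.18 in soc1-101D, −0.08 on the soc1-2 array and −0.19 between experiments 3 and 1. Whether the photosynthesis members differ from these sets was not tested.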

How the data were processed

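The values the authors deposited are linear-scale intensities, 1 for each probe set of each array. Their software, the priming of the RNA and a genome build are not given in the sources used here. Over the 7 arrays the 2% trimmed means of the deposited intensities were 495.5 to 496.2, so whole arrays had been brought to a common level before deposit. Precision is limited by the small number of arrays. Every array was scaled here to the geometric mean of the medians, 192.7, and a pseudocount of 19.3 (0.1 times that median) was added before log2. The dimmest 40% by mean log2 value were left out. limma 3.58.1 in R 4.3.3 was fitted to all 7 arrays with genotype and experiment as terms, leaving 2 residual degrees of freedom, and Benjamini-Hochberg adjustment ran over 13648 probe sets. The soc1-2 differences of single members are plain differences from Col of experiment 3 unless called fitted.

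The labels pair the arrays by naming a Col array of equal experiment number as baseline. Deviations from the group means of same-numbered Col and soc1-101D arrays correlated at 0.85, 0.74 and 0.82. Gene names came from the platform annotation, with 13513 probe sets paired with 1 gene, 503 with several and 8730 with none, and 13436 gene identifiers found in the RefSeq table of assembly TAIR10.1. That table gave the order of the plastid genes, and mitochondria-encoded probe sets were matched by symbol.

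Members given with every array were, per complex, the one with the highest mean signal, the highest and lowest in each mutant, and rbcL. The text adds ndhF, psaC and single differences of other members, chosen after their values were seen. The members, lists and transcription units were chosen with earlier results of these data known. The fit was tested on simulated data with planted differences larger than the members' median differences between genotypes. That test does not show whether differences of the members' size would be called. Quantile normalization, unscaled values, other pseudocounts and filters, a fit without the experiment block and leaving out each experiment were tried as alternatives.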

Additional observations from a re-analysis of the deposited data

How the results depend on the processing

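Of 431 values for whole comparisons or complexes under the alternatives, 406 stayed within the spread or within 1.5 times the count, and 25 moved. The spread was the SD of a set's 3 soc1-101D medians, 0.25 for all members, and was used for every comparison. Leaving out an experiment keeps the arrays of comparisons that do not involve it, so such values could barely move. The tally therefore does not measure robustness. Without the experiment block, that is without pairing the arrays, soc1-2 had 24 members at least 1.5-fold below Col (15 with it) and medians of −0.73 for all members, −0.73 for photosystem I, −0.71 for photosystem II and −1.04 for NDH. Fitted soc1-2 differences with and without the block had opposite signs for ndhH (0.08 and −1.60), atpB (−0.07 and 0.056), atpE (−0.06 and 0.022), petN (0.11 and −0.38), psaJ (−0.23 and 0.0039), psbM (−0.18 and 0.13) and SAG29 (0.77 and −1.55), and no call of a member was made or lost in either mutant. Between experiments, no filter left 7 members called lower in 2 against 1, 10 in 3 against 1, and 0 lower and 0 higher in 3 against 2, while leaving out the 20% dimmest left 1 lower and 0 higher in 3 against 2. Quantile normalization gave 1 member higher in 3 against 1 and 3 higher in 3 against 2, with a photosystem I median of −0.52 in the latter. Deposited values without further scaling and a pseudocount of 0.05 times the median each gave 3 higher in 3 against 2, and a pseudocount of 1 times the median gave 1 higher in 3 against 1 and a fitted soc1-2 difference of −0.0782 for ndhH. The alternative of leaving out members over a mean signal of 10000 was chosen after seeing the data. It left only psaA, psaC and psaI in photosystem I and only atpF, atpH and atpI in the ATP synthase. It gave photosystem I medians of −0.72 on the soc1-2 array, −1.86 in 3 against 1 and −1.98 in 3 against 2, a photosystem II median of −1.18 in 3 against 1, and ATP synthase medians of −0.72 in 2 against 1 and −1.002 in 3 against 1. Leaving out each experiment in turn gave 0 to 1 members called lower in soc1-101D and ATP synthase medians of −0.60 to −0.10. The soc1-101D differences then ran from −0.11 to 0.0521 for atpE (0.0207 as deposited, 0.04 and 0.0521 without experiments 2 and 1), −0.36 to 0.0773 for psbM, −0.0344 to 0.32 for ndhC (−0.0024 without experiment 2), −0.0674 to 0.16 for psaJ and −0.66 to 0.15 for atpH. Without the block, soc1-2 was set against the mean of all 3 Col arrays, so by construction its differences then include those between experiments. For the other shifts the cause was not tested, beyond the smaller number of arrays or probe sets that an alternative leaves by its construction. Leaving out experiment 3 gives no soc1-2 value, and without the block there is no contrast between experiments. Signals near the pseudocount, as for ndhH and psbN in experiment 3, carry compressed differences, and 3 arrays a group limit what could be called.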

Other observations

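After the values had been seen, the first and the last gene of each of the 11 transcription units were set side by side, as a description with no test. Between experiments 3 and 1 the first gene had the lower log2 difference in 9 of 11 units, with medians of −1.18 for first and −0.49 for last genes. Between experiments 2 and 1 the count was 8 of 11, but the medians ran the other way, −0.47 for first and −0.58 for last genes. Between experiments 3 and 2 the count was 7 of 11, with medians of −0.28 and −0.02. On the soc1-2 array it was 9 of 11, with medians of −0.41 and −0.36, and in soc1-101D 7 of 11, with medians of −0.40 and −0.35. Genes of a unit share transcripts and the comparisons share arrays, so these counts are not independent of each other. The 26 other plastid-encoded probe sets took 0.722%, 0.441% and 0.634% of the summed signal on the Col arrays of experiments 1, 2 and 3, against 0.586%, 0.499% and 0.446% on the soc1-101D arrays and 0.467% on the soc1-2 array.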
